A study of Mus musculus with 10 samples.

Results

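The 10 genes described here restrain signalling through the B cell antigen receptor: the receptor genes Cd22, Cd72, Fcgr2b, Cd5, Siglecg, Pirb and Lair1, and the phosphatase genes Ptpn6, Inpp5d and Ptpn22. They were chosen by name, with earlier results of these data known, and all 10 were found among the 17658 genes of the deposited table. Transcripts were measured by RNA sequencing in B cells of spleen and lymph node from C57BL/6 mice aged 10 weeks, enriched by magnetic removal of other cells. The mice were Nr4a1+/+ (wild type) or Nr4a1-/- (knockout); Nr4a1 encodes Nur77, an orphan nuclear receptor induced by antigen receptor signals. One library of each genotype came from unstimulated cells, and 4 per genotype (letters A to D) came from cells whose receptor had been crosslinked for 2 hours with anti-IgM antibody at 10 µg/mL. The labels do not name the mouse behind a letter, so p-values measure the spread between these libraries, which may be technical. With 1 library in each unstimulated group, both labelled A, values of those groups have no replicate check.

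Levels are in FPKM, which scales fragments to transcript length and to the fragments mapped in the library, so they may be compared between genes. Absolute depth is unknown; relative depth, read from 72 low genes whose values were whole multiples of a step, ran from 0.912 to 1.06. Summed FPKM ran from 557214 to 571784 in stimulated libraries; the unstimulated wild-type library reached 674961 and its knockout counterpart 595500. Nr4a1 itself was at 126 FPKM in both unstimulated libraries and at 702.1 ± 44.6 FPKM in stimulated knockout against 808 ± 47.2 FPKM in stimulated wild type (SD, n = 4 each). Its log2 difference, stimulated knockout minus wild type, was -0.20 (limma adjusted p = 0.0432), and the groups overlapped. Present at such levels in both genotypes, it could not check the labels, and every genotype direction below is between libraries as labelled. The B cell markers Cd79a, Cd79b and Ms4a1 stood between 405 and 1595 FPKM in the unstimulated libraries.

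The antigen receptor signals through tyrosine phosphorylation, and the inhibitory coreceptors answer with the same chemistry. Most carry immunoreceptor tyrosine-based inhibition motifs in their tails. Kinases such as Lyn phosphorylate these motifs, which then recruit SHP-1, a protein tyrosine phosphatase encoded by Ptpn6, or SHIP, an inositol lipid phosphatase encoded by Inpp5d. Cd22 and Siglecg encode lectins that bind sialic acid, Cd72 a C-type lectin-like receptor, Fcgr2b the inhibitory Fc receptor for IgG, and Pirb and Lair1 immunoglobulin-family receptors. Cd5 encodes a scavenger-receptor family protein known from T cells and B-1a cells, and Ptpn22 a phosphatase that acts on Src-family kinases.

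The promoters were read from RefSeq (GRCm38.p6, the assembly behind mm10), which held an entry for all 10 genes, 12 windows in all because Siglecg and Ptpn22 each have 2. The 250 bases before each start site were searched on both strands for 5 motifs. The PU.1 motif GAGGAAGT lay in 4 of the 12 windows and in 2.44% of all 32851 windows of that length. PU.1 is a transcription factor of B cells and myeloid cells. The 4 windows belong to Cd72, Cd5, Inpp5d and Pirb and are shown because they are the windows of the set that hold any of the 5 motifs. The motif was added after values had been seen, so nothing is read from which genes hold it. The match is in capitals, read along the gene's strand, and appears as ACTTCCTC where it lies on the opposite strand.
Cd72, chr4:43454627-43454876, minus strand: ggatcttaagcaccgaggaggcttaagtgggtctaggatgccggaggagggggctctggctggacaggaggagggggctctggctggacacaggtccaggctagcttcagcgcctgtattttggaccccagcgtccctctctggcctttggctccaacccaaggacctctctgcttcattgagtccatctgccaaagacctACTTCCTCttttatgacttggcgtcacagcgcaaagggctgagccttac
Cd5, chr19:10738975-10739224, minus strand: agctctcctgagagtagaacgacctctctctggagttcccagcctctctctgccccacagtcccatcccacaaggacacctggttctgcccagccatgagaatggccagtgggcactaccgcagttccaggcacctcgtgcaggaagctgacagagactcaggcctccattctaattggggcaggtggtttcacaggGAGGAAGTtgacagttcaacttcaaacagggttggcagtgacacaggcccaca
Inpp5d, chr1:87620062-87620311, plus strand: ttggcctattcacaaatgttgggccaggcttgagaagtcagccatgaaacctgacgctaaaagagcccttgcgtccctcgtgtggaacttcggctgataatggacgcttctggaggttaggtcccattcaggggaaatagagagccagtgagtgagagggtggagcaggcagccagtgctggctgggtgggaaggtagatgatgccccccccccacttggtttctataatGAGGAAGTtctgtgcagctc
Pirb, chr7:3720383-3720632, minus strand: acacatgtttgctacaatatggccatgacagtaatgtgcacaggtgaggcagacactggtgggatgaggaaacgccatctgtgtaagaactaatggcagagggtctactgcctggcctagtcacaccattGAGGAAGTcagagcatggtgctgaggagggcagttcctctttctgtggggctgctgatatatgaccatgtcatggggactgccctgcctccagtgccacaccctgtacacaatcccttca

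The match runs from 49 to 42 bases before the start site in Cd72, from 53 to 46 in Cd5, from 20 to 13 in Inpp5d and from 120 to 113 in Pirb. The start sites used for Cd72 and Cd5 lie inside the gene spans given below, not at their ends. The same holds for Cd22, Lair1, Siglecg and Ptpn22. The Nr4a monomer motif AAAGGTCA (1.34% of all windows), the Egr motif GCGTGGGCG (0.536%), the AP-1 motif TGANTCA (6.75%) and the NF-kB motif (7.25%) were found in 0 of the 12 windows. That says only that these letters are absent from these windows. No motif overlapped another in the windows shown. The AP-1 and NF-kB motifs were added after values had been seen, too.

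In unstimulated cells the order of levels was the same in both genotypes. Cd72 was highest (361 FPKM in wild type, 375 FPKM in knockout), followed by Ptpn6 (203 and 234 FPKM), Cd22 (180 and 188 FPKM) and Inpp5d (101 and 152 FPKM). Fcgr2b stood at 99.5 and 91.3 FPKM and Siglecg at 73.1 and 71.0 FPKM. Ptpn22 (17.3 and 24.9 FPKM) and Pirb (15.2 and 15.0 FPKM) were lower, Cd5 was near 1 FPKM (1.07 and 1.47 FPKM), and Lair1 was barely detected (0.17 and 0.30 FPKM). Inpp5d and Fcgr2b lay close together in wild type but not in knockout.

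**Figure D1:**
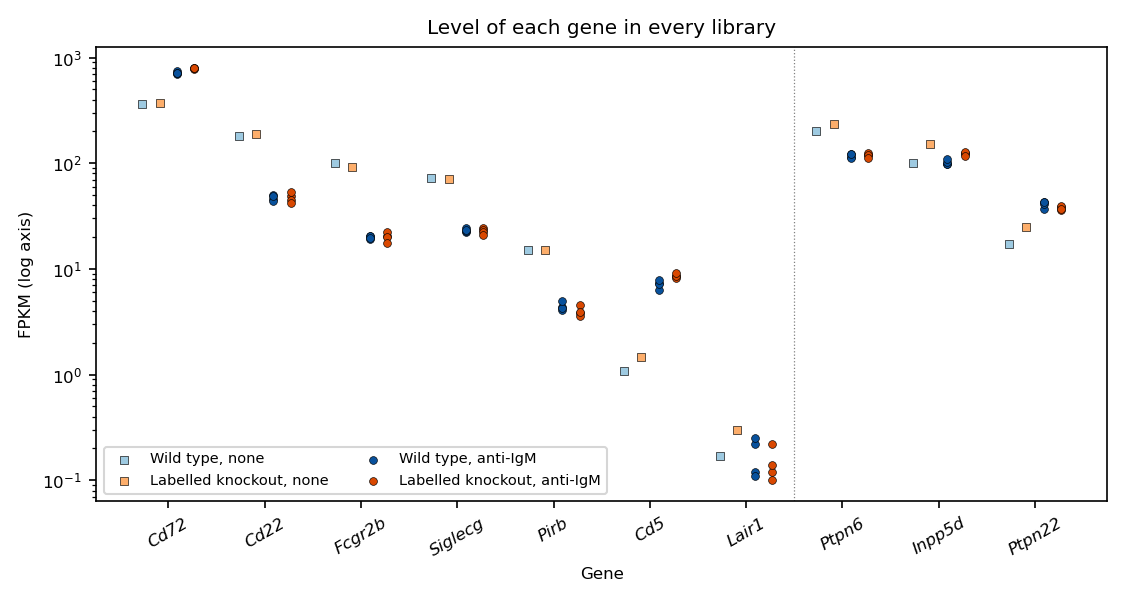
FPKM on a log axis of the 7 receptor genes (left of the dotted line) and the 3 phosphatase genes, 1 point per library; squares are the unstimulated libraries and circles the stimulated ones. Cd22, Fcgr2b, Siglecg and Pirb drop after anti-IgM in both genotypes, while Cd72, Cd5 and Ptpn22 climb, and Lair1 stays between 0.10 and 0.30 FPKM.

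After 2 hours of anti-IgM the levels differed from those of unstimulated cells: Cd22, Fcgr2b, Siglecg and Pirb fell 3.13-fold to 4.99-fold, while Cd72 rose 1.99-fold to 2.12-fold and Cd5 from near 1 FPKM. The labels give no culture time for the unstimulated cells, so time in culture and anti-IgM cannot be told apart in any change below. The stimulation fit compared 8 libraries with 2, with genotype as a term, and called a gene at a limma adjusted p under 0.05 with a change of at least 1 on the log2(FPKM + 1) scale. Of 9 genes tested, 6 were called, 2 higher and 4 lower, where 20.3% of all 10225 tested genes were called, 7.94% higher and 12.4% lower. At an adjusted p under 0.05 alone 8 of the 9 passed, 3 higher and 5 lower, against 78.9% of all tested genes, 31.2% higher and 47.7% lower. The median change of the 9 genes was -0.88 and that of all tested genes -0.17. This last shift was -0.029 once libraries were rescaled to equal sums (TPM), 0.0042 once quantile normalized and -0.017 by median-of-ratios scaling, so small changes are to be read against it. In bulk RNA, fewer cells of a type and less RNA per cell cannot be told apart.

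Cd22 (chr7:30865404-30880342, minus strand; RefSeq positions on GRCm38.p6 here and below), whose product binds sialic acid on the same or a neighbouring cell, fell. It went from 180 FPKM to 50.28, 46.14, 43.83 and 49.15 FPKM in wild-type libraries A to D. In knockout it went from 188 FPKM to 48.84, 53.19, 44.93 and 41.73 FPKM. Every stimulated library was below both unstimulated ones, and the stimulated groups overlapped. The change was -1.94 (SE 0.0790, limma adjusted p = 1.88e-09), or 3.80-fold lower in wild type and 3.99-fold lower in knockout. Only 2.75% of tested genes changed as much in either direction.

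Fcgr2b (chr1:170960558-170976071, minus strand), which turns off the cell when antigen and IgG are bound together, fell furthest of the 9 genes. Unstimulated levels of 99.5 FPKM (wild type) and 91.3 FPKM (knockout) gave way to 19.17, 20.71, 20.36 and 19.51 FPKM in wild-type libraries A to D and 20.41, 22.13, 20 and 17.67 FPKM in knockout. The change was -2.20 (SE 0.0694, limma adjusted p = 3.12e-10), 4.99-fold in wild type and 4.56-fold in knockout, and the stimulated groups overlapped.

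Siglecg (chr7:43408192-43418349, plus strand), the other sialic acid lectin of the set, fell from 73.1 FPKM to 22.49, 22.60, 24.46 and 23.54 FPKM in wild-type libraries A to D. In knockout it fell from 71.0 FPKM to 24.21, 23.25, 22.29 and 20.96 FPKM. The change was -1.61 (SE 0.0541, limma adjusted p = 4.62e-10). Its folds, 3.14 in wild type and 3.13 in knockout, were the closest between genotypes of the 4 falling genes. The stimulated groups again overlapped.

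Pirb (chr7:3712505-3720382, minus strand), a receptor for MHC class I, fell from 15.2 FPKM to 4.12, 4.40, 4.27 and 4.97 FPKM in wild-type libraries A to D and from 15.0 FPKM to 4.54, 3.80, 3.62 and 3.93 FPKM in knockout. The change was -1.63 (SE 0.0823, limma adjusted p = 9.39e-09). Pirb has near-identical activating relatives, the Pira genes, so how the counting divided shared reads bears on its level. Together these 4 falling receptor genes summed to 367 and 365 FPKM before and to 95 ± 1.96 and 93.9 ± 7.96 FPKM after anti-IgM, wild type and knockout respectively (SD, n = 4 each). Myeloid cells also express Fcgr2b, Pirb and Lair1. The summed level of 13 myeloid markers was 176 and 182 FPKM unstimulated. It was 119 to 234 FPKM in stimulated wild type and 112 to 195 FPKM in stimulated knockout. Most of it came from Tyrobp and from Lyz2, which was at 50.1 ± 43.3 and 42.2 ± 31.9 FPKM stimulated (SD, n = 4 each). Of the 12 tested, 0 were called with anti-IgM. At an adjusted p under 0.05 alone 4 were lower and 1 higher, against 47.7% and 31.2% of all tested genes. The median change of the 12 was -0.43. The part of myeloid cells in the change of Fcgr2b, Pirb and Lair1 was not tested.

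Cd72 (chr4:43447724-43455102, minus strand), which binds CD100 and recruits SHP-1, moved the other way. It rose from 361 FPKM to 740.24, 697.42, 718.06 and 717.73 FPKM in wild-type libraries A to D. In knockout it rose from 375 FPKM to 786.28, 802.9, 793.63 and 794.56 FPKM. Every stimulated library held more than any unstimulated one. The change was 1.04 (SE 0.0394, limma adjusted p = 1.10e-09), 1.99-fold in wild type and 2.12-fold in knockout. It lies at the threshold of 1: it was 0.90 after quantile normalization and 0.99 without the unstimulated knockout library, and 1.199 and 1.21 after TPM and median-of-ratios scaling. Exons of Tesk1 overlap Cd72 on the opposite strand in GENCODE M21, and Tesk1 also was higher after anti-IgM, at 14.1 and 20.4 FPKM before and 29.2 to 30 FPKM after in wild type and 30.2 to 32.9 FPKM after in knockout, without overlap. The use of strand in the counting is not given in the sources used here, so shared reads cannot be told apart in either the change or the genotype difference of Cd72, and the same holds for Cd22 with Gm29439, Fcgr2b with Gm38204 and Ptpn6 with Gm20531.

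Cd5 (chr19:10718107-10739026, minus strand) rose most of the 9 genes on the log2 scale. From 1.07 FPKM it went to 6.33, 7.33, 7.24 and 7.78 FPKM in wild-type libraries A to D, and from 1.47 FPKM to 8.66, 8.28, 8.59 and 9.09 FPKM in knockout. The change was 1.97 (SE 0.0713, limma adjusted p = 7.64e-10), and the ratio of means was 6.70 in wild type and 5.89 in knockout, both resting on unstimulated levels near 1 FPKM. T cells also carry Cd5. Of 12 T cell markers, 11 had a mean under 1 FPKM: Cd3e did not exceed 0.10 FPKM, Cd3d 0.29, Cd3g 0.33 and Cd4 0.30 FPKM in any library. The exception, Lck, which some B cells express too, rose from 17.5 and 25.0 FPKM to 46.6 ± 1.96 and 65.3 ± 1.07 FPKM (SD, n = 4 each). The summed level of 8 B-1 cell markers was 57.8 and 64.0 FPKM unstimulated, 65.6 to 76.2 FPKM in stimulated wild type and 65.2 to 81.5 FPKM in stimulated knockout, most of it from Cd9, which was at 39.7 and 42.2 FPKM before and 42.5 ± 4.64 and 41.1 ± 6.73 FPKM after (SD, n = 4 each). Of the 6 B-1 cell markers tested, Zbtb32 (1.38) and Plscr1 (1.28) rose and Spn fell (-1.29) with anti-IgM. Between stimulated genotypes only Plscr1 was called, higher in knockout by 0.38 (limma adjusted p = 0.00017), where 3.91% of all tested genes were called higher. The others differed by 0.16 (Ahnak), -0.017 (Zbtb32), -0.055 (Cd9), -0.087 (Spn) and -0.21 (Bhlhe41). The median of the 6 was -0.036. Lck was higher in stimulated knockout, by 0.48 (limma adjusted p = 3.15e-05). The part of either cell type in the values of Cd5 was not tested.

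Lair1 (chr7:4007073-4073567, minus strand), a collagen receptor, lay below the minimum mean of 1 FPKM and was not tested. Stimulated libraries held 0.12, 0.11, 0.22 and 0.25 FPKM in wild type and 0.22, 0.12, 0.14 and 0.10 FPKM in knockout. Of these 8 libraries 5 lay below both unstimulated ones, and the genotypes overlapped.

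In summed FPKM the rise of Cd72 made up for the falls. Total FPKM was 674961 in unstimulated wild type and 595500 in unstimulated knockout, against 557214 to 571784 in stimulated libraries. This balance therefore holds on the FPKM scale and was not tested at equal library sums. The 10 genes summed to 1051 FPKM in unstimulated wild type and 1083 ± 21.0 FPKM (SD, n = 4) after anti-IgM, and to 1154 and 1176 ± 19.7 FPKM (SD, n = 4) in knockout. Without Cd72 the sums went from 690.1 to 364 ± 11.1 FPKM in wild type and from 779 to 382 ± 17.5 FPKM in knockout (SD, n = 4 each). Cd72 held 34.3% and 32.5% of the summed FPKM before and 66.4% ± 0.846 and 67.5% ± 1.01 after (SD, n = 4 each). Within a library, where scaling cancels, the ratio of Cd72 to Cd22 was 2.01 and 2.00 unstimulated and 14.6 to 19.0 stimulated; this ratio and those below were chosen after values had been seen.

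**Figure D2:**
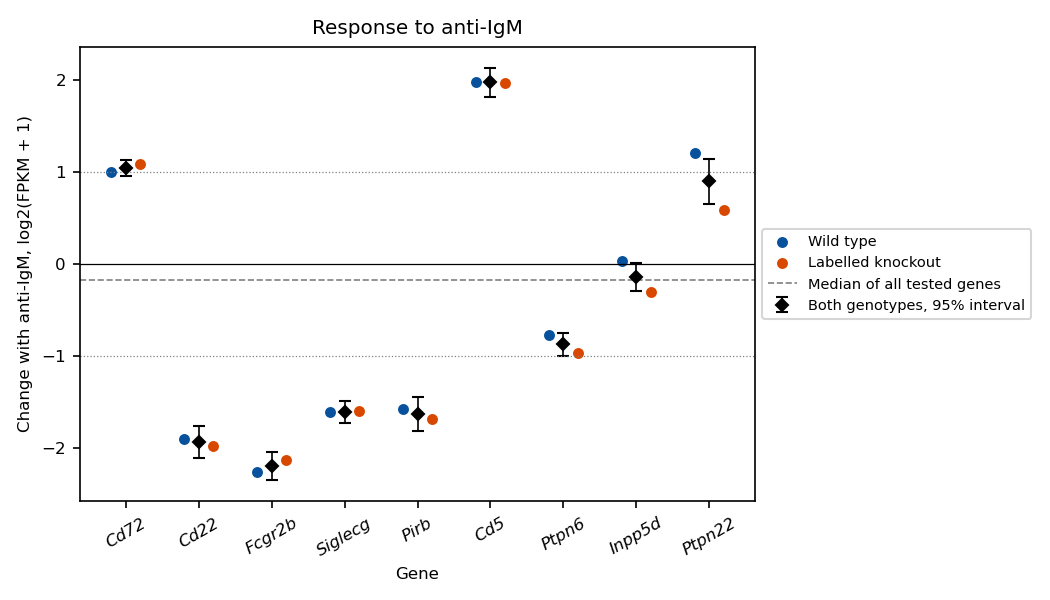
Change with anti-IgM on the log2(FPKM + 1) scale for the 9 genes tested. Diamonds with 95% limma intervals are the fit over both genotypes, coloured points the response of each genotype against its single unstimulated library, the dashed line the median of all tested genes (-0.17) and the dotted lines the threshold. The coloured points part most for Ptpn22 and Inpp5d.

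The phosphatase genes did not follow the falling receptors as a group. Ptpn6 (chr6:124720707-124738709, minus strand) fell by 0.88 (SE 0.0565, limma adjusted p = 6.98e-08), short of the threshold of 1. It was at 203 FPKM before and 121.11, 114.81, 112.71 and 122.63 FPKM after in wild-type libraries A to D. In knockout it was at 234 FPKM before and 120.67, 124.29, 118.54 and 111.01 FPKM after. All stimulated libraries lay below both unstimulated ones, and the stimulated groups overlapped. Ptpn6 passed the threshold after quantile normalization, at -1.07.

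Inpp5d (chr1:87620312-87720510, plus strand) was at 101 FPKM before and 99.32, 99.29, 103.49 and 109.93 FPKM after in wild-type libraries A to D. In knockout it was at 152 FPKM before and 125.77, 123.03, 126.47 and 115.88 FPKM after. Stimulated wild type thus lay on both sides of its unstimulated library, while all 4 stimulated knockout libraries lay below theirs. The change over both genotypes was -0.14 (SE 0.0700, limma adjusted p = 0.0821). Its sign depended on the scale: quantile normalization gave -0.39, TPM 0.020 and median-of-ratios scaling 0.034. It passed the adjusted p after quantile normalization (limma adjusted p = 0.000429) and without the unstimulated wild-type library (-0.31, limma adjusted p = 0.00143).

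Ptpn22 (chr3:103856575-103912252, plus strand) rose by 0.89 (SE 0.110, limma adjusted p = 1.77e-05), below the threshold of 1. From 17.3 FPKM it went to 36.92, 43.01, 41.34 and 43.05 FPKM in wild-type libraries A to D. In knockout it went from 24.9 FPKM to 38.36, 39.22, 36.22 and 37.26 FPKM. It passed the threshold after TPM (1.05), with median-of-ratios scaling (1.06) and without the unstimulated knockout library (1.202), and was 0.58 without the unstimulated wild-type library. The within-library ratio of Inpp5d to Ptpn6 was higher after anti-IgM, 0.498 and 0.651 before against 0.820 to 1.07 after.

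**Figure D3:**
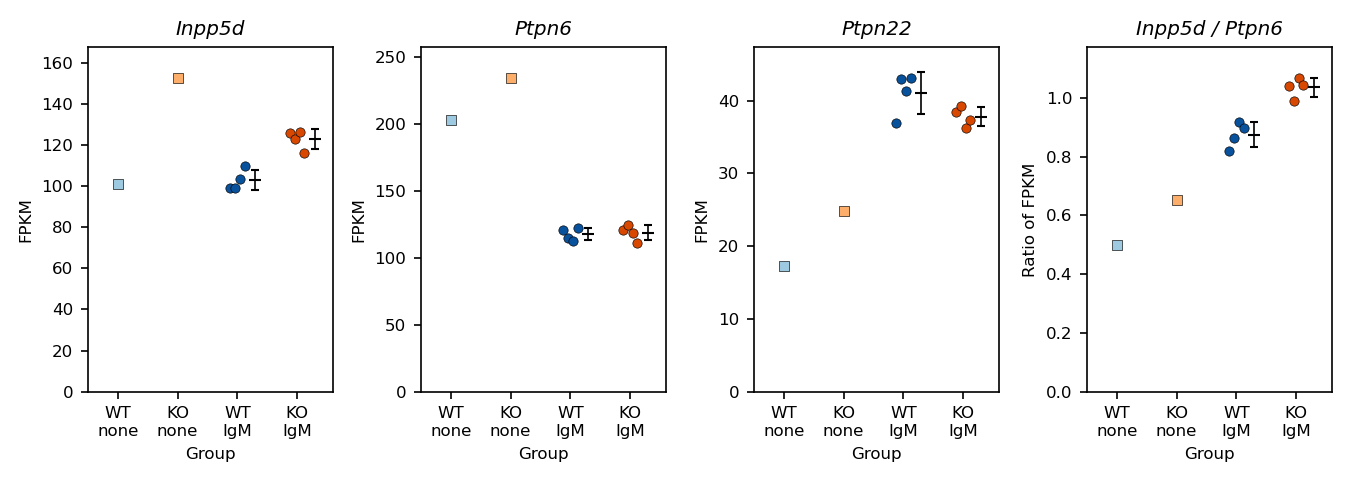
FPKM of Inpp5d, Ptpn6 and Ptpn22 and the within-library ratio of Inpp5d to Ptpn6, 1 point per library, with mean and SD bars beside the groups of 4 (WT wild type, KO labelled knockout). Inpp5d is higher in knockout with and without anti-IgM, and Ptpn22 is higher in knockout only in the unstimulated pair.

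The order of levels changed accordingly. In stimulated wild type it ran Cd72, Ptpn6, Inpp5d, Cd22, Ptpn22, Siglecg, Fcgr2b, Cd5, Pirb, Lair1, and no 2 neighbours in it had overlapping ranges. In stimulated knockout Inpp5d (123 ± 4.84 FPKM, SD, n = 4) and Ptpn6 (119 ± 5.61 FPKM, SD, n = 4) overlapped, as did Siglecg and Fcgr2b. Fcgr2b, level with Inpp5d in unstimulated wild type, ended far below it.

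The replicated comparison of the design is that between genotypes after anti-IgM, with 8 libraries. Cd72, Cd5 and Inpp5d were higher in knockout, by 10.6% to 20.7%, and 0 of the 9 tested genes were called lower. All tested genes were called at a rate of 9.72%, 3.91% higher and 5.81% lower in knockout. The same 3 genes were those whose 4 and 4 libraries did not overlap, which held for 15.5% of all tested genes. These shares were 5.96% with knockout higher and 9.57% with knockout lower. At an unadjusted p under 0.05, 4 of the 9 passed, the fourth being Ptpn22, against 22.1% of all tested genes. The median difference was 0.0043 over the 9 genes and -0.024 over all tested genes.

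Inpp5d was at 103 ± 5.02 FPKM in wild type against 123 ± 4.84 FPKM in knockout (SD, n = 4 each), 19.2% higher. The log2 difference was 0.25 (SE 0.0402, limma adjusted p = 0.00376), higher in 4 of 4 knockout libraries, and 8.55% of tested genes differed as much. Cd72 was at 718 ± 17.5 and 794 ± 6.80 FPKM (SD, n = 4 each), a difference of 0.15 (SE 0.0232, limma adjusted p = 0.00381). Cd5 was at 7.17 ± 0.608 and 8.65 ± 0.334 FPKM (SD, n = 4 each), 20.7% higher and a difference of 0.24 (SE 0.0599, limma adjusted p = 0.0336). For each of these genes the two-sided exact permutation p was 0.0286, the smallest that 70 labellings allow. Inpp5d and Cd72 passed the adjusted p in all 20 alternatives. Cd5 lost its call in 6 of 8 fits that left out 1 library, those without wild-type library A, B or C or knockout library A, C or D, with adjusted p from 0.0544 to 0.0919. Of the 3, 0 reached a minimum difference of 25%.

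The 4 receptors that fell with stimulation were not called between genotypes. The difference was -0.0090 for Cd22 (95% interval -0.17 to 0.15), 0.0043 for Fcgr2b (-0.13 to 0.14), -0.037 for Siglecg (-0.14 to 0.070) and -0.13 for Pirb (-0.30 to 0.035), with limma adjusted p from 0.347 to 0.979. Cd22 and Fcgr2b changed sign with 1 library left out, and Cd22 also with another scale. Ptpn6 differed by 0.0095 (-0.081 to 0.10, limma adjusted p = 0.925). These intervals do not show equality, and the difference of Pirb, with its wider interval, was nearly the size of that called for Cd72. Ptpn22 was lower by 0.12 in knockout (limma adjusted p = 0.211), and passed only without wild-type library A (-0.17, adjusted p = 0.0260), whose 36.92 FPKM was the lowest of its group.

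**Figure D4:**
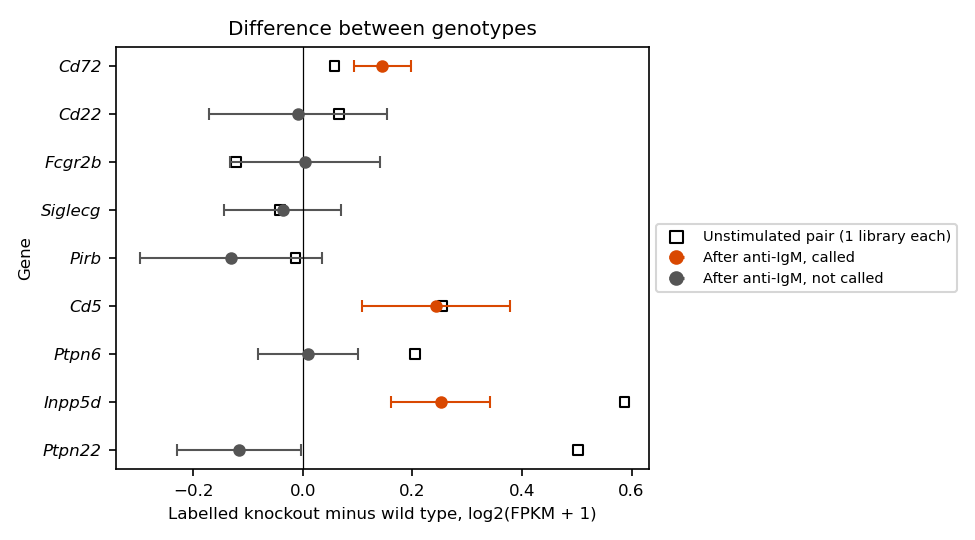
Labelled knockout minus wild type on the log2(FPKM + 1) scale; circles with 95% limma intervals are the 4 and 4 stimulated libraries (orange where called) and open squares the single unstimulated pair. Cd72, Cd5 and Inpp5d lie to the right of 0 with intervals above 0, and Inpp5d and Ptpn22 have their squares far to the right.

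In the unstimulated pair, 1 library each, Inpp5d differed by 0.59 and Ptpn22 by 0.50, where the median of all tested genes was 0.067. A distance from that median as large as that of Inpp5d was seen for 5.98% of tested genes, and as large as that of Ptpn22 for 10.7%. The other 7 tested genes differed by -0.12 (Fcgr2b) to 0.25 (Cd5). On the log2(FPKM + 1) scale Cd5 differed about as much before as after stimulation, and Cd72 by 0.058 before. The ratio of knockout to wild type for Cd5 was 1.37 before, from levels near 1 FPKM, and 1.21 after.

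Whether the response itself differed was tested as a genotype-by-stimulation term over all 10 libraries, in which each unstimulated library stands alone and is assumed to vary like the stimulated ones. Ptpn22 and Inpp5d were called, both with a smaller term in knockout, against 18.9% of all tested genes called and 14.7% called in that direction, so 2 of 9 lies near the background. A larger term in knockout was called for 4.18% of all tested genes and for 0 of the 9. At an unadjusted p under 0.05 the same 2 of 9 passed, and 33.2% of all tested genes. Ptpn22 rose by 1.202 in wild type and 0.58 in knockout, a difference of -0.62 (SE 0.113, limma adjusted p = 0.00664) that was called in all 17 alternatives. Inpp5d changed by 0.025 in wild type and -0.31 in knockout, a difference of -0.34 (SE 0.0898, limma adjusted p = 0.0309). It was not called with median-of-ratios scaling (-0.25, adjusted p = 0.126), without a filter, without an intensity trend or without wild-type library C (adjusted p = 0.0503). Both genes were higher in knockout before stimulation, and that pair of libraries enters both the difference before stimulation and this term. For the other 7 the term ran from -0.20 (Ptpn6) to 0.13 (Fcgr2b), with adjusted p of 0.165 or more. Ptpn6 was called after TPM (-0.37). The median term of all tested genes was -0.096 in FPKM and -0.25 after TPM, so the terms are to be read against it. With median-of-ratios scaling that median was -0.023, and after quantile normalization -0.0097.

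Within each stimulated library the ratio of Inpp5d to Ptpn6 was 0.875 ± 0.0426 in wild type and 1.04 ± 0.0326 in knockout (SD, n = 4 each; two-sided exact permutation p = 0.0286, 0.143 adjusted over 5 ratios). The groups did not overlap, and the unstimulated pair lay in the same order. The ratio of Cd72 to Cd22 was 15.2 ± 0.815 and 17.0 ± 1.74 (SD, n = 4 each; exact permutation p = 0.143), with overlap.

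The related lists of the pathway were drawn up with earlier results of these data known and are given as counts. They are to be read beside the shares of all tested genes. With anti-IgM 7.94% were called higher and 12.4% lower, and between stimulated genotypes 3.91% higher in knockout and 5.81% lower. Of 13 genes tested from the list of other inhibitory receptors, 3 rose and 5 fell with anti-IgM at the threshold of 1. Whether each gene on this list inhibits signalling was not tested. Pecam1, an adhesion receptor with inhibition motifs, fell from 52.2 and 54.6 FPKM to 5.30 ± 0.417 and 5.12 ± 0.424 FPKM (SD, n = 4 each), a change of -3.13. Ceacam1 (-2.57), Fcrla (-2.13) and Milr1 (-2.01) fell too, as did Btla. The gene listed as 4632428N05Rik, which encodes the checkpoint receptor VISTA, rose by 2.67, from 3.99 and 4.96 FPKM to 28.9 ± 0.985 and 39.2 ± 2.14 FPKM (SD, n = 4 each). Lilrb4, a relative of Pirb with a near-identical copy, and Havcr1 rose as well. Between stimulated genotypes 3 were higher in knockout, Lilrb4 (0.57), 4632428N05Rik (0.43) and Btla (0.16), and 2 lower, Ceacam1 (-0.32) and Fcrl1 (-0.15).

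Of 32 kinases, phosphatases and adaptors tested, 2 rose and 12 fell with anti-IgM. The kinase Lyn, which phosphorylates the inhibition motifs, fell from 130 and 142 FPKM to 55.8 ± 1.71 and 48.4 ± 2.04 FPKM (SD, n = 4 each; change -1.37). The largest falls were those of Dgka (-2.90), a diacylglycerol kinase, Sla (-2.46), an adaptor, Syk (-2.22), the kinase next to the receptor, and the ubiquitin ligase Cblb (-2.04). Fyn, a Src-family kinase, rose by 1.37, and Ubash3b rose as well. Between stimulated genotypes 3 were higher in knockout and 8 lower. The adaptor Lax1 (0.51), Ubash3b (0.26) and Grb2 were higher. Cblb (-0.49), Inpp5b (-0.32), Csk (-0.29) and Lyn (-0.20) were among the lower ones.

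Of 15 genes of ligands and sialic acid synthesis, 2 rose and 7 fell with anti-IgM. St6gal1, which makes the sialic acid linkage that CD22 prefers, fell by 1.68, and Cmah, which sets the form of sialic acid, fell by 2.23. Cd200 fell by 2.07. Cd274 (1.75) and Pdcd1lg2 (1.87), the ligands of PD-1, rose. Sema4d, which encodes CD100, the ligand of CD72, was at 36.7 and 53.7 FPKM before and 30.1 ± 1.85 and 25.8 ± 1.70 FPKM after (SD, n = 4 each). It was lower in stimulated knockout by 0.21 (limma adjusted p = 0.0426) with overlapping groups. Of the 15 genes, 2 were higher in stimulated knockout, Pdcd1lg2 (0.42) and Cd274 (0.17). The 3 lower ones were Gne (-0.34), Sema4d and Cd47 (-0.20). Of 10 activating coreceptor and B cell surface genes, 0 rose and 5 fell with anti-IgM at the threshold of 1, among them Cd79b (-2.13), Cd38 (-1.86) and Cd79a (-1.24). At an adjusted p under 0.05 alone 2 were higher, Cd180 (0.50) and Cr2 (0.28), and 7 lower, against 31.2% and 47.7% of all tested genes. Between stimulated genotypes 1 was higher in knockout, Cd180 (0.45), and 2 lower, Cr2 (-0.52) and Cd79b (-0.32). List medians were -0.60 for other inhibitory receptors and -0.53 for kinases, phosphatases and adaptors. They were -0.71 for ligands and sialic acid and -0.92 for coreceptors, beside -0.88 for the 9 inhibitory genes. Cd37, which is on both the list of other inhibitory receptors and that of coreceptors, changed by -0.60.

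**Figure D5:**
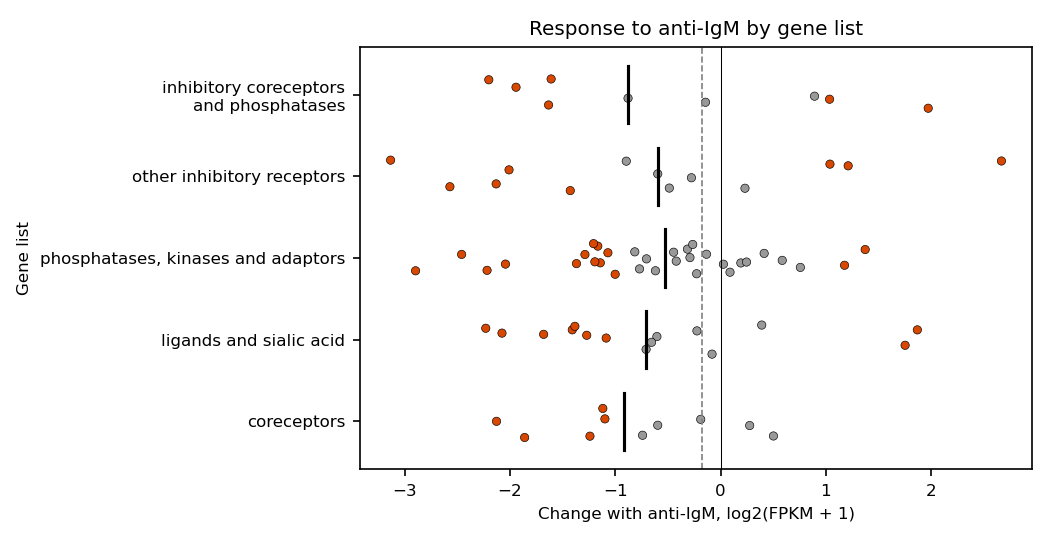
Change with anti-IgM on the log2(FPKM + 1) scale, 1 point per tested gene, for the 9 inhibitory genes and 4 related lists; orange points passed the adjusted p with a change of at least 1, black bars are list medians, and the dashed line is the median of all tested genes. All 5 medians lie between -0.53 and -0.92, left of the dashed line. Cd37 is drawn in both the list of other inhibitory receptors and that of coreceptors.

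The genes whose pattern was most like that of Cd22 over the 10 libraries were Adcy7 (Pearson r = 0.999), Pigk (0.999) and Hdac7 (0.998) among 7682 genes compared, of which 228 exceeded an r of 0.99. For Inpp5d they were Cobll1 (0.978), Map3k1 (0.966) and 4933426M11Rik (0.957). These are descriptions over libraries that fall into 4 groups, and the first follows mainly the step from unstimulated to stimulated. Map3k1, like Inpp5d, was higher in knockout before (56.3 and 77.9 FPKM) and after stimulation (55.5 ± 0.696 and 64.1 ± 2.03 FPKM, SD, n = 4 each). Map3k1 was picked for its likeness to Inpp5d over the same libraries, so this shared direction is not a separate observation.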

How the data were processed

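The deposited table gives FPKM per gene, which the authors made with RSEM, as the deposited table's name says. STAR 2.4, RSEM 1.2.14 and build mm10 are listed in the submitters' processing notes. Settings, annotation, filtering and whether strand was used are not given in the sources used here. The library kit was stranded and selected mRNA, per the labels' protocols. FPKM are not counts, so no count model was fitted. Values were transformed as log2(FPKM + 1), which understates changes of low genes. The 10225 genes averaging 1 FPKM or more over 10 libraries were tested with limma 3.58.1 in R 4.3.3 (lmFit, eBayes with trend, two-sided, Benjamini-Hochberg over all tested genes). The fits were tested on simulated data. Exact permutation tests used all 70 labellings of 4 and 4 libraries.

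The 10 genes and all lists were chosen with earlier results of these data known. Named genes are the 10, Nr4a1, genes of the 4 related lists (with values for up to 5 called genes with the largest change and 3 abundant uncalled ones per list and comparison), and the 3 most correlated genes for Cd22 and for the gene with the largest log2(FPKM + 1) genotype difference. Lyn, Tesk1 and the cell type markers given with values fall outside this rule and were chosen after their values were seen. Older symbols were matched through RefSeq (GRCm38.p6): 2 receptor names led to 1 row, and 1 of 6 NK cell and 1 of 4 follicular markers were not found. Gene positions and promoters came from RefSeq and exon overlaps from GENCODE M21. A planned search of protein motifs was not run. Alternatives were other pseudocounts (0.1 and 5), filters, scalings, eBayes settings, sample sets and a letter block.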

Additional observations from a re-analysis of the deposited data

Results flagged for a closer look

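The response to anti-IgM differed between genotypes by the interaction test for 2 of the 9 tested genes, a share near that of all tested genes (18.9% called, 14.7% with a smaller term in knockout). The term, knockout minus wild type, was -0.62 for Ptpn22 and -0.34 for Inpp5d on the log2(FPKM + 1) scale. The median term of all tested genes was -0.096. For both Ptpn22 and Inpp5d the unstimulated knockout library was the higher of the single pair. In 20 groups of 4 stimulated libraries, 10 genes in each genotype, 0 held a library far from the other 3 by Dixon's criterion, where chance gives about 1 in 20.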

How the results depend on the processing

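The count of 6 genes called with anti-IgM lay between 6 and 7 at the same threshold and was 8 at the adjusted p alone. The count of 3 called between genotypes was 2 without a filter and 2 or 3 with 1 library left out, and 0 with a minimum difference of 25%. The count of 2 in the interaction was 1 without a filter, 1 with median-of-ratios scaling, 1 without the intensity trend, and 1 to 2 with 1 library left out. It was 3 after TPM, with Ptpn6 added at -0.37, where the median term of all tested genes was -0.25. Over all tested genes, 994 genotype calls became 349 with a minimum difference of 25%, 2078 stimulation calls became 1132 with a pseudocount of 5 and 8069 at the adjusted p alone, and 1931 interaction calls became 3637 after TPM. Values near 0 changed sign. For the genotype difference this was Cd22 (0.026 with median-of-ratios scaling, 0.0050 after quantile normalization, -0.068 to 0.047 with 1 library left out), Fcgr2b (-0.042 to 0.061) and Ptpn6 (-0.013 to 0.041). For the response it was Inpp5d (0.020 after TPM, 0.034 with median-of-ratios scaling, -0.31 to 0.025 with 1 library left out). For the interaction it was Cd5 (0.075 with a pseudocount of 5, 0.056 with median-of-ratios scaling, 0.041 after quantile normalization, -0.063 to 0.024 with 1 library left out), Siglecg (-0.17 after TPM, -0.026 to 0.041), Cd72 (-0.088 after TPM), Fcgr2b (-0.048 after TPM), Cd22 (0.0063 with median-of-ratios scaling) and Pirb (0.020 after quantile normalization). Apart from the scalings and the fits on fewer libraries, the cause was not tested.

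Deviations of same-letter wild-type and knockout libraries correlated between -0.12 and 0.045, so no pairing by letter was seen. With 4 libraries per group a weak shared effect could be missed. Whether a letter stands for the same mouse before and after stimulation was not tested. With the letter as a replicate block, 2 genes were called between genotypes (Cd5 at adjusted p = 0.0555) and 6 with anti-IgM. Absolute depth is unknown, and each response rests on 1 unstimulated library per genotype.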
